A study of Mus musculus with 4 samples.

Results

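Late distal convoluted tubule (DCT) and connecting tubule (CNT) cells were picked out of single-cell RNA-Seq (scRNA-Seq) of whole mouse kidney by a gate on UMIs, the molecules counted for each gene. Barcodes were kept where 200 to 5000 genes were detected and mitochondrial UMIs were under 50%. A kept cell was chosen by at least 5 UMIs, and at least 10 per 10000, of Calb1, Trpv5 and Slc8a1 together, with no fewer S100g than Pvalb UMIs, under 15 Aqp2 UMIs per 10000 and under 10 of Slc34a1 and Lrp2 per 10000. The gate held 1582 of 34789 kept cells, out of 58660 barcodes. These genes selected the cells, so their levels are a description.

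The scRNA-Seq data consist of 4 libraries, 1 per condition, from male mice of strain C3H that were 18 weeks old at harvest. For the WT mice, the methods name the substrain C3H/HeJ. WT or Sweet Pee (SP) mice received normal diet (ND) or high-fat diet (HFD, 60% of calories from fat) for 8 weeks from 10 weeks of age, which gives the groups SP-HFD, WT-HFD, SP-ND and WT-ND. SP mice are homozygous for a missense mutation in Slc5a2, the gene of the glucose cotransporter SGLT2, in every cell of the body, and lack functional SGLT2. The number of mice behind a library is not given in the sources used here. Each condition thus has a single library, so replicate error is unknown and conditions were not tested against each other. Diet and genotype cannot be told apart from the library, and intervals are 95% and cover counting error only. Values of 4 libraries are given with ND before HFD, for WT first and SP second. A level is the pooled UMIs of a gene in the gated cells of a library, per 1000000 of their UMIs (CPM).

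The late DCT and CNT reabsorb calcium through the cell: it enters at the luminal side through TRPV5, is carried by calbindins, and leaves at the blood side through the sodium-calcium exchanger NCX1 and calcium pumps, under the control of parathyroid hormone and vitamin D. The same stretch of tubule changes from sodium uptake by the thiazide-sensitive cotransporter NCC to uptake by the aldosterone-controlled channel ENaC. CNT cells also secrete tissue kallikrein.

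The gate held 570, 255, 461 and 296 cells, with 4625540, 2292317, 4581205 and 2496732 UMIs in all. The median cell held 7287.5, 6902, 9761 and 7809.5 UMIs and 2082.5, 1978, 2410 and 2202 genes, and 32.02, 33.8, 32.6 and 34.4% of its UMIs were mitochondrial. SP-ND cells were the deepest. No barcode was shared between libraries among gated cells, against 54 to 77 per pair of libraries among all barcodes. No doublet caller was run.

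The genes of the gate give no check of the label, since they selected the cells, and their levels only describe the result of that selection. S100g (calbindin-D9k, ENSMUSG00000040808, chrX:162961992-162964599 in mm10, positions from GENCODE vM21) was at 26850.1, 15008, 31435 and 20427 CPM in the gated cells. In endothelial cells, which should lack it and show free RNA, it was at 205, 117, 223 and 73.3 CPM. Calb1 (calbindin-D28k, ENSMUSG00000028222, chr4:15881264-15908064) was at 3635, 2271.5, 5027 and 3179 CPM against 32.8, 41.5, 34.3 and 13.3 CPM in endothelial cells. Slc8a1, the gene of NCX1, was at 2948, 2261, 3391 and 2722 CPM against 43.5, 32.2, 24.7 and 17.9 CPM, and Trpv5, the calcium entry channel, at 84.7, 61.9, 88.6 and 69.7 CPM against 0.791, 0.84, 0.715 and 0 CPM. Early DCT cells (chosen by Slc12a3, with more Pvalb than S100g UMIs) held 476, 239, 416 and 211 CPM of S100g and 591, 1309, 588 and 1377 CPM of Calb1. Principal cells (chosen by Aqp2) held 6431, 2451, 7188 and 2506 CPM of S100g and 1461, 929, 1797 and 1361 CPM of Calb1. The gate's limit on Aqp2 left out 207, 154, 186 and 246 cells that carried its marker genes. How many of those cells were counted as principal cells was not tested. Gated and principal cells were thus divided by a limit on Aqp2 and need not be distinct cell types. The order of these classes was largely set by the rules that chose them. Outside the gate, 7 of the 20 genes furthest above other kept cells, described further on, were above early DCT, principal and endothelial cells in each of the 4 libraries, namely Klk1, Ltc4s, Clu, Kl, Atp2b4, Klk1b22 and Vdr. The 20 were ranked in these same cells against a set that includes those classes. Their order is thus a description too and no check of the label.

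**Figure D1:**
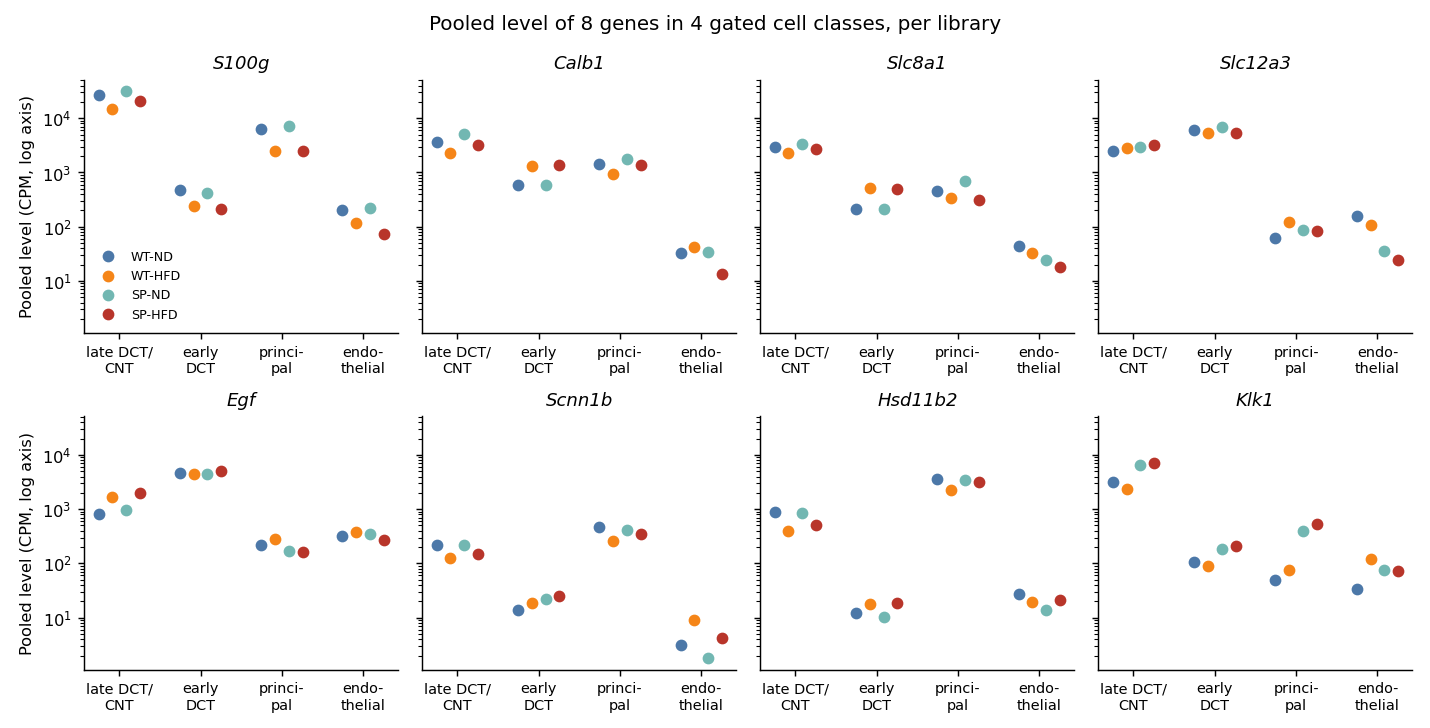
Pooled level in CPM (log axis) of 8 genes in the gated late DCT and CNT cells, early DCT cells, principal cells and endothelial cells, with 1 point per library. S100g, Calb1 and Slc8a1, which chose the cells, and Klk1, which did not, were highest in the gated cells of each library, Slc12a3 and Egf in early DCT cells, and Scnn1b and Hsd11b2 in principal cells.

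The label does not cover every gated cell. The 3 marker genes of the gate had a median of 52.7, 33.2, 72.1 and 49.9 UMIs per 10000. In the band from 10 to 12 per 10000, just inside the threshold, lay 17, 26, 10 and 12 cells with a median S100g of 39.4, 35.3, 30.2 and 37.3 per 10000. From 8 to 10, just outside, lay 14, 33, 13 and 24 cells with 24.9, 11.6, 32.6 and 19.5. S100g was at 0 in 5, 3, 4 and 7 gated cells. The renin gene Ren1, of juxtaglomerular cells, was held mainly by 2, 1, 3 and 2 gated cells with at least 10 Ren1 UMIs, which carried 80, 73.02, 95.7 and 96.1% of its UMIs.

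Genes of intercalated cells (Atp6v1g3, Atp6v0d2, Foxi1 and Slc26a4 at 10 or more per 10000 together) were found in 145, 63, 97 and 45 gated cells, or 25.4, 24.7, 21.04 and 15.2% of them. These had a median of 10405, 8672, 14390 and 14561 UMIs, more in each library than the 6080, 6335, 9072.5 and 7124 of the other gated cells. Whether they are doublets was not tested, and ratios without them are given below where they bear on a gene.

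The gated cells made up 5.24, 2.63, 6.83 and 3.96% of kept cells, with Clopper-Pearson intervals of 4.83 to 5.68, 2.32 to 2.97, 6.24 to 7.45 and 3.53 to 4.43. The share was lower on HFD in both genotypes, by a log2 ratio of -0.996 (-1.22 to -0.78) for WT and -0.78 (-0.999 to -0.57) for SP, and higher in SP than in WT by 0.38 (0.20 to 0.56) on ND and 0.59 (0.35 to 0.84) on HFD. The size of this difference, and in SP its presence, rests on the criterion that sets S100g against Pvalb, the calcium-binding protein of the early DCT. Without it the gate held 693, 460, 545 and 608 cells, or 6.38, 4.74, 8.07 and 8.14% of kept cells, and the diet ratio was -0.43 (-0.60 to -0.25) for WT and 0.013 (-0.16 to 0.18) for SP. Of these wider sets, 82.3, 55.4, 84.6 and 48.7% had no fewer S100g than Pvalb UMIs. What was lower on HFD in both genotypes was thus the part of the Calb1, Trpv5 and Slc8a1 cells with no fewer S100g than Pvalb UMIs.

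**Figure D2:**
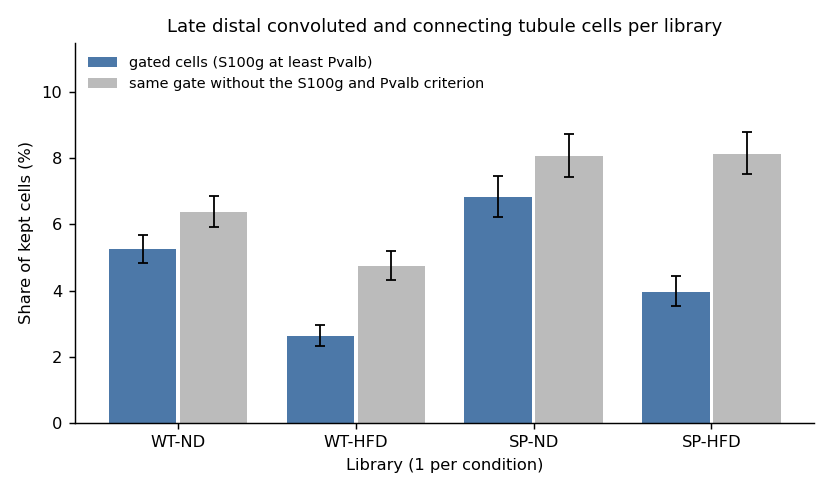
Share of kept cells in each library that passed the gate (blue) and that passed it without the criterion on S100g and Pvalb (grey), with 95% Clopper-Pearson intervals as error bars. The gated share was 5.24% and 6.83% on ND against 2.63% and 3.96% on HFD, while in SP the wider share was 8.07% on ND and 8.14% on HFD.

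Among gated, early DCT and principal cells together, the gated cells were 40.1, 23.3, 40.6 and 22.3%, lower in both HFD libraries. Early DCT cells were 35.4, 36.3, 33.1 and 40.2% and principal cells 24.4, 40.4, 26.3 and 37.5%. These shares rest on the same criteria, since S100g against Pvalb divides gated from early DCT cells and Aqp2 divides gated from principal cells. They are no separate evidence of fewer cells. The dissociation sets which cells reach a library, and its part in these shares was not tested.

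Outside the genes of the gate, the gene furthest above all other kept cells was Klk1, tissue kallikrein (ENSMUSG00000063903, chr7:44225360-44229618), at 3234, 2400.2, 6443 and 7147 CPM against 122, 161, 327 and 418 CPM. Early DCT cells held 106, 88.4, 181 and 212 CPM of Klk1 and principal cells 48.5, 76.6, 389 and 540.0 CPM, so it marked the gated cells in each library. After thinning each cell to 2000 UMIs, which left out 40, 23, 53 and 28 shallower gated cells, 60.9, 60.8, 75 and 83.2% of gated cells had a Klk1 UMI (unthinned 73.3, 77.3, 86.1 and 88.9%). In endothelial cells the thinned share was 5.91, 7.06, 9.67 and 8.40%, after leaving out 148, 35, 132 and 120 cells, and 9.86, 12.1, 16.8 and 14.7% unthinned at median depths of 2940.5, 4177, 2806 and 3176.5 UMIs. The Klk1b genes are near copies of Klk1 in which reads can be split or shared. Of 13 named Klk1b genes, Klk1b22 (ENSMUSG00000060177, chr7:44112673-44116922) was at 177, 166, 175 and 185 CPM and each of the others at or below 16.4 CPM.

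The next genes by the smallest ratio over the 4 libraries were Ltc4s (leukotriene C4 synthase) at 152, 224, 143 and 241 CPM, Clu (clusterin) at 1113, 885, 1111 and 904 CPM and Kl (klotho, the FGF23 coreceptor) at 1683, 1457, 1794 and 1792 CPM. Their smallest log2 ratios to all other kept cells were 3.09, 2.94 and 2.65. The 20 leading genes also held Atp2b4, a calcium pump, and Vdr, the vitamin D receptor. Sodium genes among them were Slc12a3 (NCC), Wnk1 and Klhl3 (its regulators) and Scnn1b and Scnn1g (ENaC subunits). Pgam2, Emx1, Tmem52b, Klk1b22, Sgms2, Kcnj10, Tbx2, Acss1 and Slc35g1 made up the rest, with smallest ratios between 1.68 and 2.56. Several of the 20 were no higher than in neighbouring classes: Pgam2, Slc12a3, Emx1, Tmem52b, Sgms2, Klhl3 and Wnk1 were below early DCT cells in all 4 libraries, and Scnn1b and Scnn1g below principal cells. Kcnj10 was below principal cells in both ND libraries and below early DCT cells in both HFD libraries. Tbx2, Acss1 and Slc35g1 were below one of these classes in some libraries. Since the cells were gated on measured levels, these ratios carry no test.

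The gated cells were not uniform in sodium transport. Slc12a3 was at 10 or more per 10000 in 254, 117, 233 and 186 of them, or 44.6, 45.9, 50.5 and 62.8%, with Clopper-Pearson intervals of 40.4 to 48.7, 39.6 to 52.2, 45.9 to 55.2 and 57.1 to 68.4. At a threshold of 20 per 10000 the shares were 41.2, 34.1, 45.3 and 54.7%. SP-HFD had the highest share at both thresholds. This divides a range and not types, and the comparisons of levels on either side of it leave out cells with intercalated genes, which left 229, 100, 203 and 172 cells with Slc12a3 and 196, 92, 161 and 79 others.

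Hsd11b2, the enzyme that protects the mineralocorticoid receptor from glucocorticoids (ENSMUSG00000031891, chr8:105518755-105523988), was at 44.8, 34.8, 47.2 and 50.9 CPM in cells with Slc12a3 and 1797, 1126, 1754 and 1279.8 CPM in the others. The ENaC subunits went the same way, with Scnn1b at 109, 98.4, 109.8 and 102 CPM against 341, 193, 331 and 220.0 CPM and Scnn1g at 85.3, 60.1, 90.1 and 100.4 CPM against 367, 298, 368 and 377 CPM. In each of the 4 libraries these 3 genes were higher where Slc12a3 was low. Scnn1a, the third ENaC subunit, was near even at 279.9, 289, 283 and 303 CPM against 269.7, 230.0, 225 and 267 CPM. Klk1 was at 2275, 1811, 4256 and 5580.1 CPM with Slc12a3 and 5835, 5388, 11538 and 16269 CPM without, higher in the others in each library. It was spread widely among those others, where 71, 32, 37 and 17 cells had no Klk1 UMI and the upper quartile was 61.3, 73.7, 147 and 179 per 10000. Aqp3, a water channel of principal cells, was at 5.47, 22.6, 12.04 and 4.88 CPM with Slc12a3 and 349, 346, 286 and 456 CPM without.

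Higher with Slc12a3 in each library were Egf, at 1745, 2989.7, 1832 and 3028 CPM against 169.7, 298, 229.6 and 449 CPM, and Wnk1, at 3126, 2628, 3345 and 2948 CPM against 869, 878, 1334 and 1078 CPM. Trpm6, the magnesium channel, was at 113, 142, 175 and 107 CPM against 22.7, 37.2, 48.3 and 26.9 CPM, and the parathyroid hormone receptor Pth1r at 279.9, 293, 266 and 285 CPM against 122, 159.9, 181 and 148 CPM. The split by Slc12a3 was thus also one of Trpm6 and Pth1r. Calb1 was at 5684, 3169.9, 7230.2 and 4367 CPM against 2872, 2098, 3915 and 1787 CPM, also higher with Slc12a3. S100g showed no such order: it was at 31601, 18608, 34036 and 26555 CPM with Slc12a3 and 33303, 18189, 38484 and 17263 CPM without, higher with it in WT-HFD and SP-HFD and lower in WT-ND and SP-ND. Trpv5 was at 86.9, 70.5, 98.3 and 83.7 CPM against 87.4, 67.9, 86.5 and 58.4 CPM.

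**Figure D3:**
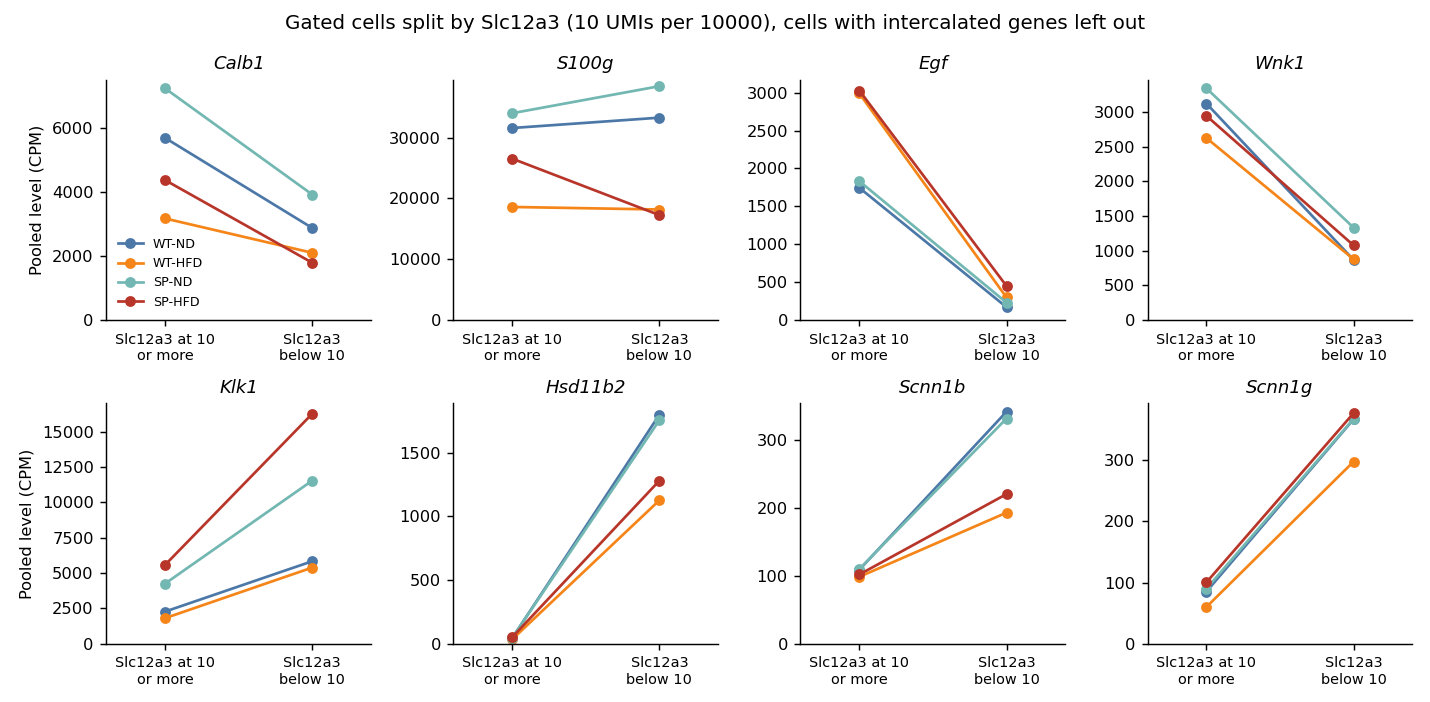
Pooled level in CPM of 8 genes in gated cells with Slc12a3 at 10 or more UMIs per 10000 (left) and below (right), each library as a line, without cells that carried intercalated genes. Egf, Wnk1 and Calb1 are higher on the left in all 4 libraries, Klk1, Hsd11b2, Scnn1b and Scnn1g on the right, and S100g has no common direction.

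Some cells held both sodium uptake genes, counted here over all gated cells. At 2000 UMIs per cell, 13.6, 14.2, 17.4 and 17.9% of gated cells had a UMI of Slc12a3 and one of Scnn1b or Scnn1g, with Clopper-Pearson intervals of 10.8 to 16.8, 10.0 to 19.4, 13.8 to 21.4 and 13.5 to 23.0 (unthinned 35.6, 40.4, 44.03 and 46.96%). Early DCT cells gave 3.87, 3.40, 3.22 and 4.99%, principal cells 4.75, 4.25, 3.40 and 2.05% and endothelial cells 0, 0.672, 0 and 0.262%. For the counts of 0, the Clopper-Pearson upper bound was 0.835% of endothelial cells in WT-ND and 0.711% in SP-ND (0.682% and 0.58% if a count of 0 is taken to allow 3 cells). The share was thus above all 3 other classes in each library. Without cells carrying intercalated genes, which left 389, 172, 319 and 225 gated cells, it was 15.7, 13.95, 17.6 and 18.7%. Slc12a3 alone was found in 34.9, 46.6, 39.7 and 46.6% of gated cells, Scnn1b or Scnn1g alone in 35.1, 22.8, 28.4 and 21.6% and neither in 16.4, 16.4, 14.5 and 13.8%.

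Between conditions, 992 genes with a mean of at least 100 CPM over the libraries were compared, and a gene past 2-fold (a log2 ratio of 1 or more either way) was counted. For HFD to ND in WT, 0.806% of them were past 2-fold higher and 0.403% lower (8 and 4 genes). In SP the diet gave 0.302% and 0.101% (3 and 1). For SP to WT, 1 gene (0.101%) was higher and 4 (0.403%) lower on ND, and 1 (0.101%) was higher and 7 (0.706%) lower on HFD. The median log2 ratio of all 992 was -0.04, 0.06, -0.01 and 0.10 for the diet in WT, the diet in SP, the genotype on ND and the genotype on HFD, an order kept for 4 ratios below. Most genes thus lay within 2-fold in each comparison.

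The calcium genes of the gate were lower on HFD in both genotypes, a description, since they also chose the cells. S100g was at 26850.1 (26701 to 26999.8), 15008 (14850.2 to 15168), 31435 (31273 to 31598) and 20427 (20249.8 to 20605) CPM, lowest in WT-HFD. In log2 terms HFD differed from ND by -0.84 (-0.86 to -0.82) for WT and by -0.62 (-0.64 to -0.61) for SP. SP differed from WT by 0.23 (0.22 to 0.24) among ND and 0.44 (0.42 to 0.46) among HFD libraries. Over cells, the median S100g was 239, 84.3, 309 and 146 UMIs per 10000. S100g was also lower on HFD in principal cells (-1.39 in WT and -1.52 in SP), in early DCT cells (-0.99 and -0.98) and in endothelial cells (-0.81 and -1.61). In the wider set without the S100g and Pvalb criterion it was at 22984, 7643, 27281 and 10004 CPM, lower on HFD. That set adds 123, 205, 84 and 312 cells with more Pvalb than S100g UMIs, more of them on HFD. The part of this change of mix in its levels, here and below, was not tested.

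Calb1 was at 3635 (3579.9 to 3690.0), 2271.5 (2210.2 to 2334), 5027 (4963 to 5093) and 3179 (3109.8 to 3250.1) CPM in the gated cells. On HFD Calb1 stood at a ratio of -0.68 (-0.72 to -0.63) to ND for WT and -0.66 (-0.70 to -0.62) for SP, and its genotype ratio 0.47 (0.44 to 0.50) on ND and 0.49 (0.43 to 0.54) on HFD, so SP-ND was highest and WT-HFD lowest. Slc8a1 was at 2948, 2261, 3391 and 2722 CPM, in the same order, with diet ratios of -0.38 (-0.43 to -0.34) and -0.32 (-0.36 to -0.28). In early DCT cells Calb1 and Slc8a1 went the other way, with diet ratios of 1.15 in WT and 1.23 in SP for Calb1 and 1.25 and 1.28 for Slc8a1. Which of the 2 classes a cell fell in was set by S100g against Pvalb, and the part of that in these ratios was not tested. In the wider set Calb1 was at 3344, 2149, 4603 and 2661 CPM and Slc8a1 at 2594, 1517, 3014 and 1702 CPM, lower on HFD in both genotypes.

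**Figure D4:**
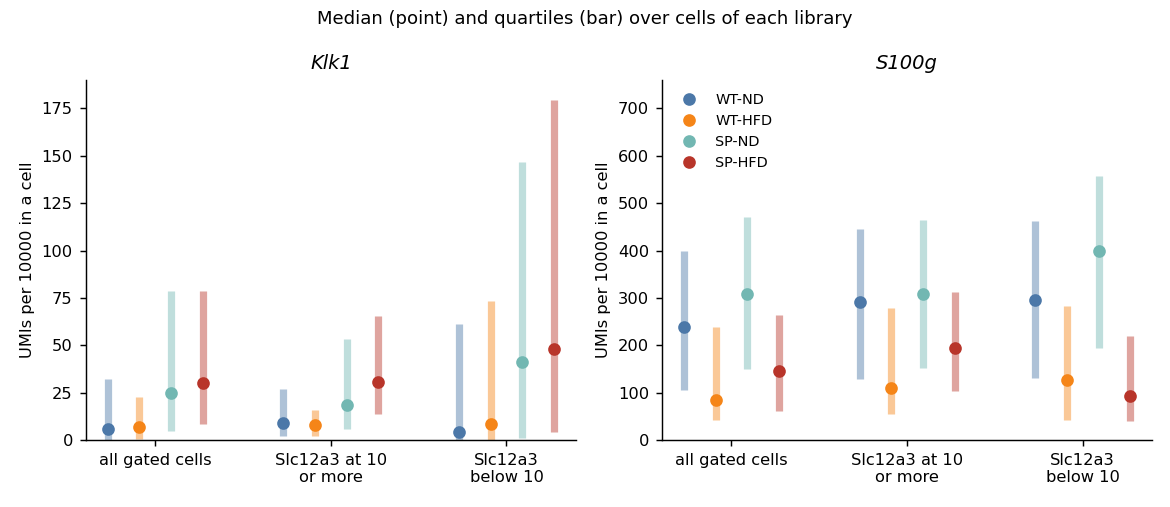
Median (points) and quartiles (bars) of Klk1 and S100g UMIs per 10000 over single cells of each library, for all gated cells and for those with and without Slc12a3, cells with intercalated genes left out of the last 2 sets. The median S100g was 84.3 and 146 on HFD against 239 and 309 on ND, and the median Klk1 was 25.04 and 30.1 in SP against 6.01 and 6.85 in WT.

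Trpv5 was at 84.7, 61.9, 88.6 and 69.7 CPM, with diet ratios of -0.45 (-0.74 to -0.17) for WT and -0.35 (-0.61 to -0.09) for SP. Trpv6, a second calcium entry channel, was at 7.35, 4.80, 6.77 and 4.41 CPM. The calcium-sensing receptor Casr was at 29.2, 22.2, 29.03 and 31.2 CPM and the pump Atp2b1 at 87.6, 88.6, 96.5 and 80.9 CPM, and Cyp24a1, which breaks down vitamin D, was below 1 CPM in each library. Vdr was at 199, 178, 251 and 172 CPM, highest in SP-ND. Pth1r was at 172, 215, 202 and 203 CPM, Atp2b4 at 156, 148, 184 and 178 CPM and Kl at 1683, 1457, 1794 and 1792 CPM, and none of these 3 differed by over 0.33 on the log2 scale between conditions. Of 12 calcium genes 7 had a mean of at least 100 CPM, of which Calb1, S100g and Slc8a1 are genes of the gate, and none was past 2-fold. Of the 4 others (Atp2b4, Vdr, Pth1r and Kl), 3 were below 0 for the diet in WT and 3 in SP, beside 557 and 373 of all 992 genes. For the genotype 4 were above 0 on ND and 2 on HFD, beside 453 and 713 of 992. The medians of the 4 genes were -0.11, -0.02, 0.24 and 0.11, and with the genes of the gate -0.21, -0.32, 0.23 and 0.27.

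On HFD, the genes past 2-fold higher in both genotypes were Ier3 and Egf. Ier3, an immediate early gene (ENSMUSG00000003541, chr17:35821684-35822923), was at 207 (194 to 221), 476 (448 to 505), 168 (156 to 179.9) and 418 (393 to 444) CPM, with both HFD libraries above both ND libraries. Its diet ratio, with counting error, was 1.20 (1.07 to 1.32) for WT and 1.32 (1.18 to 1.45) for SP. Without cells carrying intercalated genes it was 1.39 and 1.46. Early DCT cells gave 2.20 and 1.73, principal cells 0.03 and 0.33, and endothelial cells -0.33 and -0.36.

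Egf, the epidermal growth factor gene of the DCT, which acts on the magnesium channel (ENSMUSG00000028017, chr3:129677565-129755316), was at 831 (805 to 858), 1678 (1626 to 1732), 961 (933 to 990.1) and 1947 (1893 to 2003) CPM, again higher in both HFD libraries. Its diet ratio, with counting error, was 1.01 (0.95 to 1.08) for WT and 1.02 (0.96 to 1.08) for SP. Early DCT cells held 4576, 4462, 4439 and 5036 CPM, with diet ratios of -0.04 and 0.18, and endothelial cells 319, 373, 344 and 269 CPM. Within gated cells with Slc12a3 the diet ratio was 0.78 and 0.72, and in those without it 0.81 and 0.97, so it was above 0 on either side of the split, though under 2-fold. In the wider set Egf was at 1317, 3219, 1429 and 3479 CPM.

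In WT alone the other genes past 2-fold higher included Ccn1 (a matricellular protein gene), Gadd45g (a stress gene), Umod (uromodulin of the thick limb), Fabp3 (a fatty acid binding protein gene) and the transcript Gm26917, with ratios between 1.01 and 1.71 for the 8 genes. Ccn1 was at 68.1, 222, 59.2 and 113 CPM and Fabp3 at 174, 355, 223 and 338 CPM, both higher on HFD in SP also. Umod was at 357, 774, 538 and 671 CPM in gated and 461, 921, 645 and 502 CPM in endothelial cells, with diet ratios in WT of 1.12 and 1.00. In SP Aqp6, a water channel of type A intercalated cells, was at 71.4 on ND and 149.8 CPM on HFD. Without the cells that carried intercalated genes it was at 7.32 and 3.72 CPM, so that call rests on them. Ltc4s, Ppp1r1a (an inhibitor of protein phosphatase 1), Gdf15, Pim3, S100a10 and Ccnd1 were among the 19 genes above 0.5 in both genotypes. Ltc4s had ratios of 0.56 and 0.76, and Ppp1r1a of 0.75 and 0.66.

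Lower on HFD was Hsd11b2, at 897 (869.9 to 925), 400.0 (375 to 427), 842 (816 to 869) and 506 (478 to 535) CPM. Its diet ratio, with counting error, was -1.16 (-1.27 to -1.06) for WT and -0.74 (-0.83 to -0.64) for SP, and both HFD libraries lay below both ND libraries. In principal cells it was at 3538, 2218, 3380.5 and 3125 CPM, with ratios of -0.67 and -0.11. In the gated cells without Slc12a3 or intercalated genes the ratios were -0.68 and -0.45, where the median of all genes was -0.23 and -0.22. In those with Slc12a3, at the low levels given above, Hsd11b2 was lower on HFD in WT but slightly higher in SP. In the wider set, whose mix of cells differed by diet, Hsd11b2 was at 767, 205, 729.6 and 259 CPM. Scnn1b was at 222, 128, 215 and 151 CPM, with ratios of -0.80 (-0.99 to -0.61) and -0.52 (-0.69 to -0.34), and Scnn1g at 199, 137, 200.2 and 170.2 CPM, with -0.54 (-0.73 to -0.36) and -0.23 (-0.40 to -0.07). Principal cells held 475, 262, 405 and 356 CPM of Scnn1b and 383, 281, 350.4 and 350.5 CPM of Scnn1g. In gated cells both genes were lower in each HFD library than in the ND library of the same genotype. Within the Slc12a3 split this order did not hold for Scnn1g in SP, where the ratio was 0.16 (-0.17 to 0.48) in cells with Slc12a3 and 0.04 (-0.23 to 0.30) in those without, while the share of cells with Slc12a3 was 50.5% on ND and 62.8% on HFD. Scnn1a, at 275, 267, 273 and 286 CPM, had ratios of -0.04 and 0.07.

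Fxyd4, a sodium pump subunit of the collecting duct, was at 253, 105, 182 and 120.2 CPM, and Cldn8, a claudin of the distal nephron, at 253, 171, 292 and 180.2 CPM. Both were lower on HFD in either genotype over all gated cells, but in cells with Slc12a3 the ratio of Fxyd4 in WT turned to 0.61 (0.01 to 1.21). Scd2, a stearoyl-CoA desaturase gene, was lower on HFD in SP, at 358, 258, 548 and 279.6 CPM, by a ratio of -0.97 (-1.09 to -0.85), and in WT the ratio was -0.47. In endothelial cells Scd2 was at 71.2, 44.3, 103 and 54.6 CPM. Fxyd4 was near even by diet in principal cells, where its ratios were -0.12 and 0.01. Ndrg1, Slc35g1, Tspan8 and the transcript AY036118 were among the others of 9 genes below -0.5 in both genotypes. Also past 2-fold lower was Gm10076 in WT, by -1.52 in gated and -1.14 in endothelial cells. So was Cltrn (collectrin of proximal tubule) in SP, by -1.12 in gated and -1.68 in endothelial cells. Across 987 genes outside the gate, the diet ratios of the genotypes, which share no library, had a Pearson correlation of 0.66 and a Spearman correlation of 0.68, and 70.6% had the same sign. The genotype ratios on the 2 diets, which share no library either, had a Pearson correlation of 0.53 and a Spearman correlation of 0.30, and 55.0% had the same sign. Genes are not independent replicates.

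**Figure D5:**
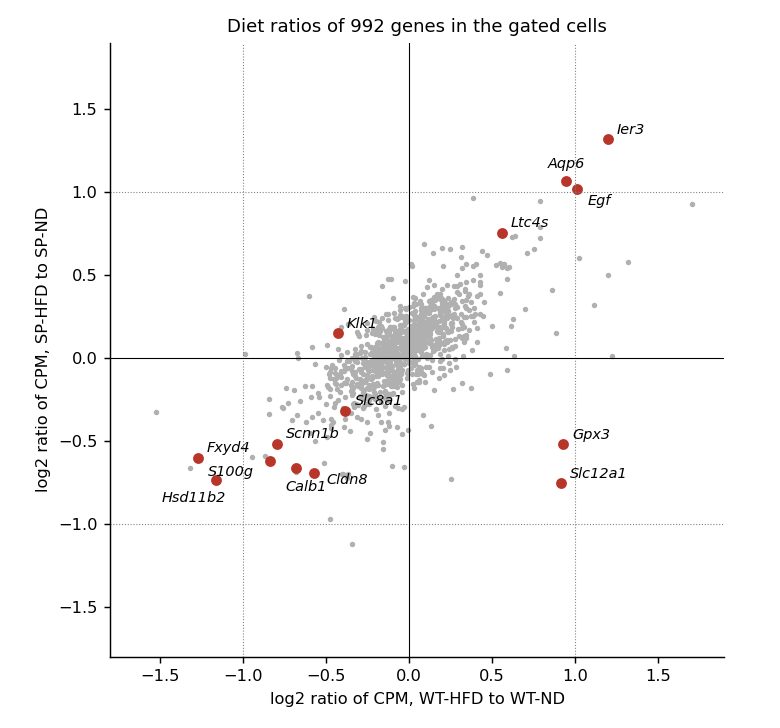
Log2 ratio of HFD to ND in gated cells of WT (x axis) and SP (y axis) for 992 genes (grey points), with named genes in red and dotted lines at 2-fold. Ier3 and Egf lie past 2-fold higher in both genotypes, Hsd11b2 lies at -1.16 and -0.74, and Gpx3 and Slc12a1 lie above 0 in WT and below 0 in SP.

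Among genes higher in SP, Klk1 was the one with a log2 ratio above 0.5 on both diets. It was at 3234 (3182 to 3286), 2400.2 (2337 to 2464), 6443 (6369.6 to 6517) and 7147 (7042 to 7252) CPM in gated cells, with both SP libraries above both WT libraries. SP exceeded WT by a log2 ratio of 0.99 (0.97 to 1.02) on ND, just under 2-fold, and 1.57 (1.53 to 1.62) on HFD. Over cells, the median was 6.01, 6.85, 25.04 and 30.1 Klk1 UMIs per 10000, and 152, 58, 64 and 33 cells had none. By diet, Klk1 had a ratio of -0.43 (-0.48 to -0.39) in WT mice and 0.15 (0.12 to 0.18) in SP mice.

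The genotype ratio of Klk1 was alike on either side of the Slc12a3 split, at 0.90 on ND and 1.62 on HFD in cells with Slc12a3, and 0.98 and 1.59 in those without. In the wider set without the S100g and Pvalb criterion Klk1 was at 2784, 1249, 5617 and 3578 CPM, with genotype ratios of 1.01 and 1.52. There its diet ratio was -1.16 in WT and -0.65 in SP, so that the sign of the diet ratio in SP turned with the criterion. Principal cells held 48.5, 76.6, 389 and 540.0 CPM and early DCT cells 106, 88.4, 181 and 212 CPM, with genotype ratios of 3.01 and 2.82, and 0.77 and 1.26. Endothelial cells held 34.03, 119.6, 76.5 and 71.5 CPM, with 1.17 on ND and -0.74 on HFD, the opposite sign on HFD. Klk1b22, at 177, 166, 175 and 185 CPM, differed little by genotype.

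Of the other secreted products, Defb1, a defensin of the distal tubule, was highest in SP-ND, at 2285, 2239, 3516 and 2232 CPM. Spp1 (osteopontin) was at 3110.1, 2508, 3409 and 3053 CPM and Wfdc2 at 1544, 1243, 1637 and 1634 CPM, lowest in WT-HFD. All 5 genes of this list (with Klk1 and Egf) were compared, of which Egf was past 2-fold by diet and Klk1 by genotype on HFD, and the medians were -0.31, -0.00, 0.21 and 0.28.

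Lower in SP on both diets, past 2-fold, were Kap, Cryab, Cyp4b1 and Acsm2. On HFD, Kap, Cyp4b1 and Acsm2 were under 2-fold once cells with markers of another class were removed, with ratios of -0.97, -0.74 and -0.87, and Cryab was under 2-fold in cells without Slc12a3, at -0.89. Cryab, a small heat shock protein gene (ENSMUSG00000032060, chr9:50751325-50756636), was at 236 (222 to 251), 307 (284 to 330.2), 64.6 (57.5 to 72.4) and 66.9 (57.1 to 77.8) CPM. Its genotype ratio was -1.87 (-2.06 to -1.68) on ND and -2.20 (-2.45 to -1.95) on HFD, and in gated cells with Slc12a3, at 273, 341, 23.6 and 28.6 CPM, -3.53 and -3.58. Early DCT cells gave -1.27 and -1.03. Principal cells, at 564, 651, 681 and 572 CPM, gave 0.27 and -0.19, and endothelial cells, at 104, 406, 339 and 221 CPM, gave 1.70 and -0.88. The low level in SP was thus seen in both DCT classes and not in principal cells.

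Kap, an androgen-controlled gene of proximal tubule cells, was at 2262, 2956, 397 and 774 CPM in gated cells and 4472, 2194, 869 and 1515 CPM in endothelial cells. Its genotype ratio on ND was -2.51 in gated, -2.58 in early DCT, -2.51 in principal and -2.36 in endothelial cells. On HFD these were -1.93, -0.66, -1.39 and -0.53. Cyp4b1 and Acsm2, also of proximal tubule, were at 181, 216, 51.7 and 58.9 CPM and 176, 228, 66.8 and 58.9 CPM, against 693, 465, 286 and 411 CPM and 364, 185, 133 and 115 CPM in endothelial cells. Kap was thus lower in SP in the other 3 classes as well, and Cyp4b1 and Acsm2 in endothelial cells. On HFD the endothelial ratios of Cyp4b1 and Acsm2 were small, at -0.18 and -0.69, beside -1.87 and -1.95 in gated cells. Past 2-fold lower on HFD alone were, among others, Gpx3 and Klf6, and past 2-fold higher on ND alone was Slc12a1, the cotransporter of the thick limb, at 64.6, 122, 158 and 93.7 CPM in gated and 154, 207, 274 and 143 CPM in endothelial cells.

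Of 13 immediate early genes 11 were compared, of which none was past 2-fold between genotypes on ND and 1, Klf6, on HFD. All 11 had ratios below 0 on both diets, beside 539 of all 992 genes on ND and 279 on HFD, with medians of -0.10 on ND and -0.47 on HFD, beside -0.01 and 0.10 over all genes. Fos was at 492, 561, 347 and 389 CPM, Jun at 509, 609, 399.7 and 419 CPM and Atf3 at 110.0, 169.7, 82.5 and 96.9 CPM, with the SP library below the WT library of the same diet in each. Klf6 was at 151, 180.2, 138 and 83.3 CPM, lowest in SP-HFD. By diet the medians were 0.25 in WT and 0.07 in SP, with Ier3 past 2-fold in both. These genes respond to dissociation, whose part in the result was not tested. Heat shock genes (8 of 10 compared) had none past 2-fold, and medians of 0.40, 0.17, -0.06 and 0.04.

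Among sodium genes, Slc12a3 was at 2470.4, 2847, 2939.6 and 3217 CPM and Wnk1 at 1739, 1769, 2172 and 2126 CPM, and Wnk4, its partner kinase, at 278, 269, 313 and 254 CPM. Of 12 genes of NCC and its control 8 were compared, none was past 2-fold, and the medians were -0.01, 0.03, 0.18 and 0.18. Of 15 genes of ENaC, aldosterone response and potassium secretion 7 were compared and Hsd11b2 was past 2-fold, with medians of -0.09, 0.01, 0.01 and 0.29. Kcnj1, the potassium channel ROMK, was at 478, 472, 527 and 612 CPM, highest in SP-HFD. The mineralocorticoid receptor gene Nr3c2 was at 57.9, 34.03, 49.99 and 44.5 CPM and Sgk1, an aldosterone-induced kinase, at 77.4, 59.8, 109.6 and 85.7 CPM, under the 100 CPM limit on average. Of 10 magnesium genes 4 were compared, Egf was past 2-fold, and the medians were 0.39, 0.29, 0.10 and 0.10. Fxyd2, a sodium pump subunit, was at 2737, 3116, 2738 and 2781 CPM and Trpm6 at 56.4, 82.01, 105 and 70.9 CPM.

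The remaining lists had few genes past 2-fold. Distal transcription factors (5 of 12 compared) had none and medians of -0.26, 0.06, 0.03 and 0.33, and Gata3 was at 123, 77.2, 116 and 118 CPM, lowest in WT-HFD. Claudins (2 of 8 compared) had none and medians of -0.46, -0.43, 0.03 and 0.06, and water channels and their receptor (2 of 4) none and -0.32, 0.03, -0.28 and 0.07. Glycolysis (11 of 13) had none and -0.03, 0.10, -0.01 and 0.13. Oxidative phosphorylation (72 of 79) had none and -0.03, 0.08, -0.01 and 0.16, and ribosomal proteins (74 of 79) none and -0.09, 0.04, -0.05 and 0.07. The 13 mitochondrially encoded genes had none and -0.12, -0.07, 0.04 and -0.03. These large lists lay close to the medians over all genes given above.

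Fatty acid oxidation and PPAR targets (5 of 17 compared) had Fabp3 past 2-fold in WT, with medians of 0.01, 0.12, -0.02 and 0.10. Tubular injury markers (3 of 11: Spp1, Clu and Cryab) had Cryab past 2-fold by genotype, with medians of -0.31, -0.16, -0.00 and 0.03. Clu was lower on HFD in both genotypes, by ratios of -0.33 and -0.30. Havcr1 (KIM-1) was at 0.432, 3.05, 0 and 0 CPM and Lcn2 (NGAL) at 1.51, 3.93, 2.40 and 1.60 CPM. NF-kB targets (3 of 17 compared: B2m, Scnn1a and Ier3) had Ier3 past 2-fold by diet and medians of -0.04, 0.07, -0.16 and -0.02. That list was chosen with earlier results of these data known and is not independent evidence of a direction. In the insulin list only Txnip had a mean of at least 100 CPM, at 465, 367, 547 and 481 CPM, with log2 ratios of -0.34, -0.19, 0.23 and 0.39. Pck1, of gluconeogenesis, was at 25.9, 259.6, 20.3 and 88.5 CPM in gated and 48.3, 175, 32.5 and 146 CPM in endothelial cells, just under the limit on average. None of 11 methionine cycle and PRC2 genes had a mean of 100 CPM over the libraries, and their summed level was 296, 320.2, 293 and 316 CPM, led by Mat2a (methionine adenosyltransferase) at 88.9, 103, 78.4 and 109 CPM.

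Markers of other cell types were present in the gated cells and moved between libraries. The 13 proximal tubule markers summed to 3354, 4843, 1120.0 and 1316 CPM (3193, 4639, 1034 and 1242 CPM without Slc34a1 and Lrp2, which the gate limits), of which Kap held 2262, 2956, 397 and 774 CPM, and to 6094, 3351, 1786 and 2232 CPM in endothelial cells. The 6 thick limb markers summed to 934, 1452, 1290.3 and 1432 CPM, with Umod the highest except in WT-ND, where Kcnj1, also of the distal tubule, was. Without Kcnj1 the sum was 456, 980.2, 763 and 819 CPM. Type A intercalated markers (6) summed to 1759, 1618, 1346 and 1399.8 CPM, led by Atp6v1g3, and type B (5) to 568, 334, 411 and 399 CPM, led by Spink8. Both SP libraries were thus below both WT libraries for proximal tubule markers. The 5 principal cell markers summed to 1672, 920.5, 1471 and 1058 CPM, led by Hsd11b2, and to 1394, 685, 1213 and 837 CPM without Aqp2, which the gate limits. The 5 early DCT markers summed to 3895, 5531, 4561 and 6185 CPM, led by Slc12a3, and to 3364, 4615, 4015 and 5242 CPM without Pvalb, which the gate sets against S100g. With or without the genes of the gate, the sum of principal cell markers was lower and that of early DCT markers higher on HFD in both genotypes, as were Hsd11b2 and Egf, members of these lists, and the part of the mix of cells in the ratios of both genes was not tested. Endothelial markers (6) summed to 79.3, 49.7, 59.4 and 78.1 CPM, led by Emcn, immune markers (10) to 51.7, 79.8, 107 and 28.8 CPM, led by Cd74, and podocyte markers (4) to 147, 155, 69.9 and 139 CPM, led by Podxl. Fibroblast and mural markers (6) summed to 67.02, 65.00, 317 and 129 CPM, led by Ren1. Erythroid markers (4) were at or below 30.1 CPM and cell cycle markers (4) at or below 13.2 CPM. No listed marker was at 0 in all 4 libraries.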

How the data were processed

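Single-cell suspensions of enzymatically dissociated whole kidneys were profiled by droplet scRNA-Seq with 3' v3.1 chemistry in 4 libraries, 1 per condition. The deposited matrices hold unnormalized UMI counts. The authors ran Cell Ranger with genome mm10 (version 2.1.1 per the labels, 6.1.2 per the file headers and another version in the methods, a conflict that could not be settled). Libraries held 93142028, 115117649, 111617794 and 90728590 UMIs in 16385, 15000, 14046 and 13229 barcodes, each of at least 500 UMIs.

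UMIs of gated cells were pooled per library and scaled to CPM in Python 3.11.15. Levels have exact Poisson intervals, ratios exact conditional binomial intervals and shares Clopper-Pearson intervals, at 95%. Genes with a mean of 100 CPM or more were compared. No p-value was computed, since cells are not replicates. Genes were named where listed, among the 20 furthest above other kept cells, among the 8 highest or lowest ratios of a comparison, or past 2-fold in both genotypes or diets, and those past a log2 ratio of 0.5 in both were chosen after their values were seen. The gated cells, the 32 lists and the tests were chosen with earlier results of these data known. Early DCT cells had at least 5 UMIs and 10 per 10000 of Slc12a3 with more Pvalb than S100g, and principal cells at least 5 UMIs and 15 per 10000 of Aqp2. Endothelial cells were chosen by Emcn, Kdr and Plvap. Alternatives changed the cell filters, the gate, doublet removal, free RNA subtraction, normalization and the CPM minimum. The scripts were tested on simulated data. Some genes that these rules name are not reported here.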

Additional observations from a re-analysis of the deposited data

Results flagged for a closer look

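Gpx3 (glutathione peroxidase 3) and Slc12a1 had diet ratios of opposite sign in the 2 genotypes. In gated cells the log2 ratio of Gpx3 was 0.93 in WT and -0.52 in SP, and that of Slc12a1 was 0.92 in WT and -0.75 in SP. With 1 library per condition the difference between genotypes was not tested. Gpx3 is among the 13 proximal tubule markers and Slc12a1 among the 6 thick limb markers. In gated cells these lists summed to 3354, 4843, 1120.0 and 1316 CPM and to 934, 1452, 1290.3 and 1432 CPM. The part of RNA from those cell types in the 2 ratios was not tested. Gpx3 was at 544, 1037, 423 and 295 CPM and Slc12a1 at 64.6, 122, 158 and 93.7 CPM in gated cells. In endothelial cells Gpx3 was at 560, 492, 349 and 295 CPM and Slc12a1 at 154, 207, 274 and 143 CPM, with ND before HFD, for WT first and SP second.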

How the results depend on the processing

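The gated cells numbered 1582, or 662 where mitochondrial UMIs had to be under 30%. The log2 ratio of their share by diet in WT (-0.996) was -1.35 with 10 UMIs and 20 per 10000 of the gate's markers, -0.55 with 3 UMIs and 5 per 10000, -1.70 after thinning to 2000 UMIs and -0.43 without the S100g and Pvalb criterion. In SP it was -0.78, against -1.17 under 30% mitochondrial UMIs and 0.013 without the criterion. By genotype on ND it was 0.38, against 0.57 under 30% mitochondrial UMIs. By genotype on HFD it was 0.59, against 0.26 with the looser markers, 0.92 without cells carrying other classes' markers and 1.15 after thinning.

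Of 992 genes, those past 2-fold numbered 12 and 4 by diet in WT and SP, and 5 and 8 by genotype on ND and HFD. The number of genes compared differed between settings. They numbered 33, 16, 11 and 22 of 1189 under 30% mitochondrial UMIs and 24, 8, 13 and 17 of 1021 with the looser markers. With nuclear-encoded UMIs only they numbered 22, 13, 12 and 19 of 1590. At a mean of 50 CPM they numbered 27, 19, 17 and 25 of 2235, and at 200 CPM 6, 2, 1 and 3 of 441. By diet in SP they numbered 8 with the stricter markers, 8 without the deepest 10% of cells, 7 without cells carrying intercalated genes, and 9 without cells carrying other classes' markers or as a mean over cells. By genotype they numbered 8 and 16 without the deepest cells, 9 and 17 as a mean over cells, and 4 on HFD without other classes' markers. Without the criterion they numbered 29 and 19 by diet. In cells with Slc12a3, intercalated genes left out, they numbered 19, 7, 4 and 9 of 928. In those without Slc12a3 they numbered 35, 26, 12 and 18 of 913. Of these, 10 were higher and 25 lower by diet in WT, and 7 higher and 19 lower in SP. After an endothelial profile was subtracted, 386 genes were compared. Past 2-fold were then 170 and 7 by diet in WT and SP, and 4 and 183 by genotype on ND and HFD. The scale of that subtraction was 1.35 in WT-HFD, above 1, and so removed more than the whole profile.

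Aqp6 by diet in SP turned to -0.39 without other classes' markers, -0.98 without intercalated genes and -1.66 in cells without Slc12a3. Fxyd4 by diet in WT turned to 0.61 in cells with Slc12a3. Under the subtraction Umod by diet in WT turned to -6.56, and by genotype Acsm2 on ND to 3.22 and Klf6 on HFD to 3.05. Slc34a1, a gene that the gate limits and whose mean is under 100 CPM, went from -1.72 to 3.14 by genotype on HFD. Over all alternatives run, Klk1 by genotype on HFD lay between 1.22 and 1.81, Ier3 by diet between 0.89 and 1.68 in WT and between 0.86 and 2.30 in SP, Egf between 0.52 and 1.32 in WT and between 0.67 and 1.28 in SP, and Hsd11b2 between -1.90 and -0.36 in WT, so each of these but Klk1 was under 2-fold in some. By genotype on HFD, Kap lay between -2.42 and -0.97, Cryab between -3.58 and -0.89, Cyp4b1 between -2.31 and -0.74 and Acsm2 between -2.49 and -0.87. The cause was not tested for these. Dropping the criterion, removing cells with intercalated genes or with S100g at 0, and splitting by Slc12a3 were chosen after seeing the data. No paired analysis was possible because each condition has 1 library, and for the same reason no replicate could be left out. The 1582 cells and their depth limit genes under 100 CPM, such as Trpv5.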
